A study of Mus musculus with 6 samples.

Results

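The genes described here are the cyclins, the cyclin-dependent kinases (CDKs), the CDK inhibitors, the E2F transcription factors, the retinoblastoma family and Mdm2, as measured in cultured myospheres. They were chosen by gene symbol, from the probe sets annotated with a single gene on the Affymetrix chips MOE430A and MOE430B. Earlier results of these data were known when the choice was made. The choice gave 51 genes of 18194 measured, read by 118 probe sets, 77 of them on MOE430A and 41 on MOE430B. One gene that the symbols took in, Ccnb1ip1, encodes a ubiquitin ligase that binds cyclin B and is not itself a cyclin. Ccnb1, Cdk15 and Trp53 were not analysed here.

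Myospheres are floating clusters, grown here from hind-leg muscle of male Balb/c mice after cell sorting for the surface antigen Sca1. All arrays share this one condition: 4 days in a neural stem cell medium with EGF, LIF, B27 and an additive written bf6f, a first passage, and RNA from 2000000 cells. The titles give 3 replicates, each on both chips, and the labels do not say whether these were separate cultures. The spread between replicates may therefore be technical. No age, genotype change or second condition is given, so the data hold levels in 1 state of the cells and no response.

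A cell divides when cyclins bind and activate CDKs in sequence. D-type cyclins with Cdk4 or Cdk6 begin to inactivate the retinoblastoma proteins in G1, which frees E2F factors. Cyclins E and A with Cdk2 then drive DNA replication, and cyclins A and B with Cdk1 drive mitosis. Inhibitors of the CIP/KIP family bind many cyclin-CDK complexes and those of the INK4 family bind Cdk4 and Cdk6. In resting muscle, stem and connective tissue progenitors are mostly out of the cycle, and growth factors bring them into it.

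Each value is a MAS5 signal, Affymetrix's summary of the probes of 1 probe set, on a linear scale that the authors had set to the same trimmed mean on every array. A background limit was placed on each array at the 95th percentile of probe sets for genes of other tissues, such as odorant receptors and keratin-associated proteins. It averaged 809 on MOE430A and 2903 on MOE430B, and calls were made within each chip. The array medians were 547 to 610 on MOE430A and 861 to 970 on MOE430B. Relative to the median, the limit was thus much stricter on MOE430B. A probe set had to pass its limit on each of the 3 arrays, and 1 such probe set sufficed for a gene. The probe sets that defined the limit met this rule in 2.67% of 150 on MOE430A and 4.55% of 44 on MOE430B. The percentile itself holds these shares low, so they are not a measured rate of false calls. Gapdh control probes gave a mean 3′ to 5′ ratio of 13.8 on MOE430A, and of 15.4 on the other chip. Loss of 5′ signal can lower a probe set that lies far from the 3′ end, and its part in the low values below was not tested. The defining markers of connective tissue progenitors were above the limit for 5 of 5 genes, among them Pdgfra at 12733 ± 791 (SD, n = 3), and those of muscle for 0 of 6. On MOE430A the muscle genes were not alike: Myog read 729.7, 1332 and 1468 and Myod1 1074, 605 and 1062, each over the limit on 2 arrays, and Acta1 and Ckm were over it on 1 array. Pax7 and Myf5 were under it throughout, at 304 ± 11.9 and 76.8 ± 32.4. Of endothelial markers 1 of 4 was above it (Kdr) and of haematopoietic markers 2 of 4 (Csf1r and Cd14). In such bulk RNA, fewer cells of a type and less RNA per cell cannot be told apart.

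Of the 51 genes, 30 (58.8%) were above the limit, where 36.1% of all genes measured were. Genes with more probe sets have more chances to pass, and 18 of the 51 have 3 or more. Within genes of 1 probe set, 6 of 18 members passed against 22.1% of all genes, with 2 probe sets 10 of 15 against 42.3%, and with 3 or more 14 of 18 against 59.1%. By probe set, 38 of 77 were above the limit on MOE430A, where 35.5% of all single-gene probe sets were, and 7 of 41 on MOE430B, where 13.6% were. The median log2 ratio of signal to limit was 0.19 for the members' probe sets and -0.51 for all on MOE430A, and -1.10 against -1.67 on MOE430B. With MOE430A alone the shares lay closer together, at 52.3% of 44 members and 42.7% of all genes. Each probe set's mean distance from the limit was also tested with limma, one-sided and adjusted over all probe sets of its chip, and 25 of the 51 genes then passed, where 32.2% of all genes did. With the limit at the 99th percentile 23 were above it (27% of all genes), with the array median as limit 35 (53.8%), and with 1 probe set per gene, the one of highest signal, 27 (34.5%). This last choice sets signals of separately scaled chips against each other. It dropped Ccnd3, Cdk7 and E2f6, in each of which a MOE430B probe set of higher signal replaced the MOE430A one that had passed, so it says nothing about those 3 genes.

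**Figure D1:**
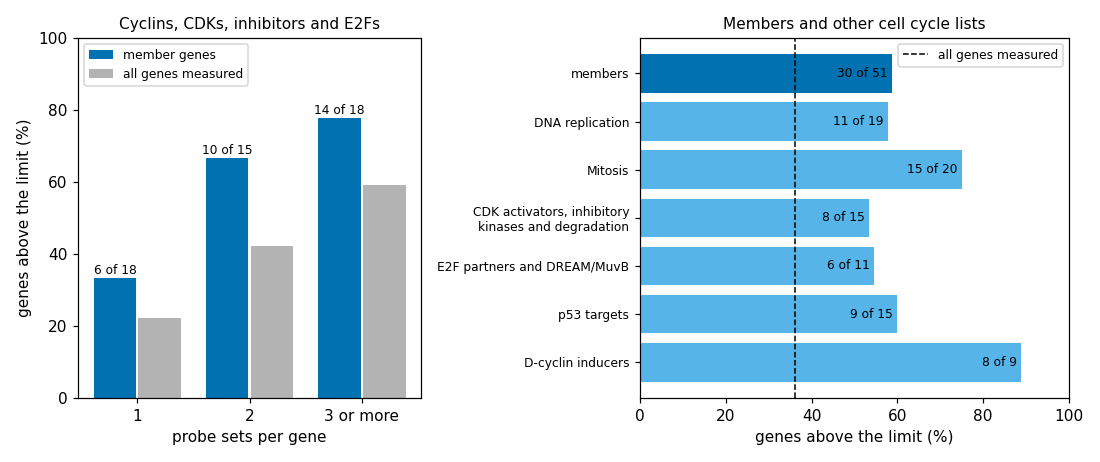
Left, percent of genes above the background limit by number of probe sets per gene, for the members (blue, counts above the bars) and for all genes measured (grey). Right, the same percent for the members and for the other cell cycle lists, with counts in the bars and a dashed line at the share of all genes, 36.1%. This line is not matched for probe sets per gene. In each class of probe set number the members' bar is the taller one.

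The D-type cyclins, the sensors of growth factor signals in G1, were above the limit for 3 of 3 genes. The share of all genes was 36.1%. Family counts here and below cover few genes each and were not matched for probe sets per gene. Ccnd1 read 8046, 5977 and 3777 in replicates 1, 2 and 3 by its probe set 1448698_at, whose lowest array was 4.60 times the limit. Replicate 1 was the high array of this probe set and replicate 3 the low one, and the spread gave 5933 ± 2135 (SD, n = 3). The gene's other probe sets varied less, at 4810.2 ± 557 and 2833 ± 349, and all 3 lay above the limit, by 1.80 to 2.81 on the log2 scale (limma, adjusted p no higher than 3.97e-06). Ccnd2 read 5865, 6810.0 and 6185 by 1434745_at, 7.77 times the mean limit (2.96 ± 0.096 on the log2 scale, SE; limma, adjusted p = 5.9e-08). The arrays of this probe set lay close together, with no replicate standing apart.

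Ccnd2 is read by 7 probe sets and 5 of them were above the limit, by 0.44 to 2.96 on the log2 scale. The other two, 1416123_at and 1416124_at, read 12.3, 41.8 and 229 and 40.5, 189 and 317, below the limit on every array. A call for this gene therefore depends on which probe set is read. Ccnd3 read 2273, 2576 and 3051 by its MOE430A probe set (1.69 ± 0.11 log2 over the limit; limma, adjusted p = 3.97e-06). On MOE430B its probe sets were not above the limit on all arrays, at 2478, 4480.1 and 3142 and 1394, 1170.1 and 209. Replicate 1 was under the limit in the first of these and the others were over it.

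**Figure D2:**
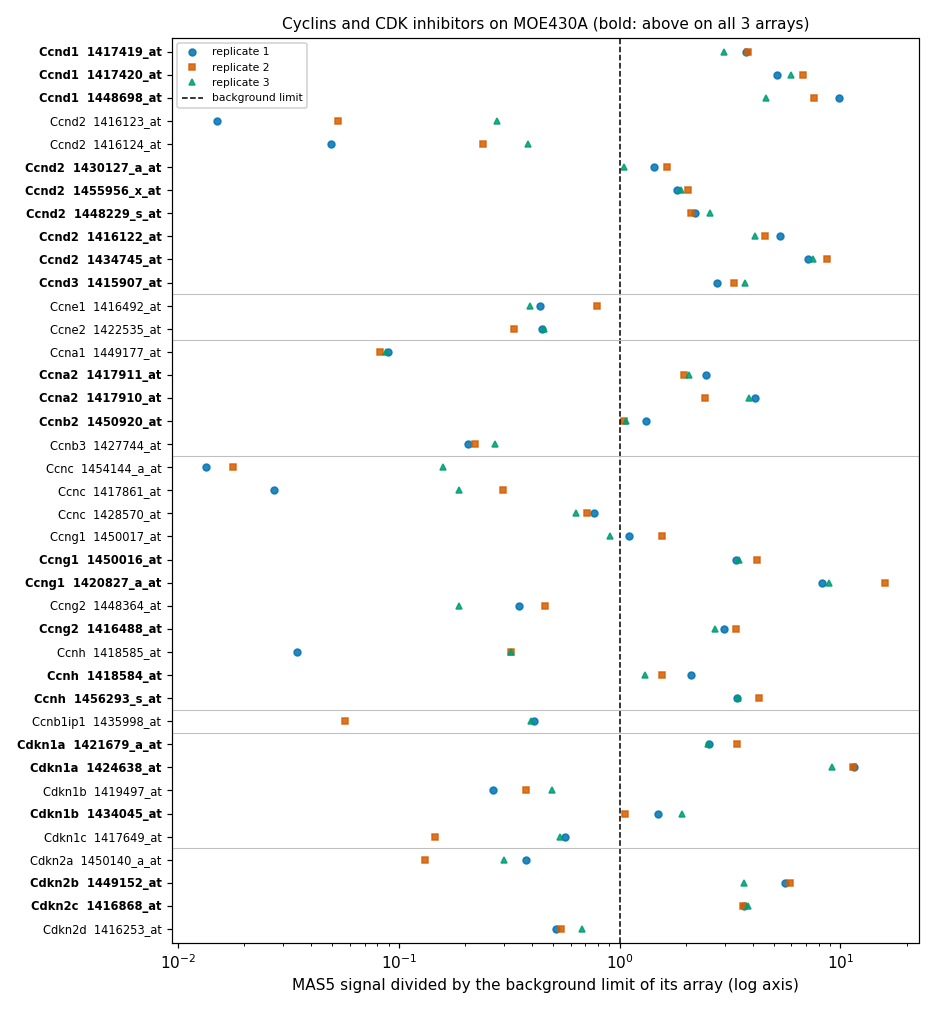
Signal divided by the background limit of its array (log axis) for the cyclin and CDK inhibitor probe sets of MOE430A, 1 row per probe set and 1 marker per replicate, with the limit as a dashed line and families separated by grey lines. Ccnd1, Cdkn1a and Ccng1 lie to the right of the limit by at least 1 probe set on every array, while probe sets of the same gene, as for Ccnd2 and Ccnh, can lie on opposite sides of it.

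E-type cyclins act at the entry into S phase. Ccne2 read 365, 262 and 373 and was under the limit on every array. Ccne1 passed through 1441910_x_at on MOE430B, 1 of 2 probe sets, at 13529, 9021 and 10341 (1.90 ± 0.15 log2 over the limit; limma, adjusted p = 1.57e-07). The suffix _x_at marks probes that can match other transcripts, and the Ccne1 probe set without it read 356, 622 and 323 on MOE430A, under the limit throughout. The call of Ccne1 thus rests on a probe set of shared sequence.

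The S phase and mitotic cyclin Ccna2 was above the limit by both probe sets, at 3355, 1905 and 3169 and 2011, 1530.2 and 1699.6. Replicate 2 was the low array in each, and still at least 1.95 times the limit (log2 distances 1.75 ± 0.16 and 1.10 ± 0.12, SE; limma, adjusted p = 2.21e-05 and 7.29e-05). The mitotic cyclin Ccnb2 lay at the limit: it read 1081, 822 and 875, and the lowest array was 1.05 times its limit. Its distance from the limit was 0.19 ± 0.16 on the log2 scale and did not pass (limma, adjusted p = 0.381). Ccnb2 was not called with the limit at the 99th percentile. Ccna1, the cyclin A of the germ line, read 73.2, 64.6 and 72.2, and Ccnb3, a cyclin of meiosis, 168, 173 and 224, both far under the limit.

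Cdk1, the kinase of mitosis, read 2919.9, 2057 and 2306, above the limit on every array (1.57 ± 0.12 log2; limma, adjusted p = 8.34e-06). It is a partner of both Ccna2 and Ccnb2. The promoters of Cdk1 and Ccnb2 are shown because genes of this phase are known to carry TTTGAA, the cell cycle genes homology region that the DREAM complex reads, beside CCAAT boxes bound by NF-Y, and some carry E2F sites. The 250 bases before each start site follow, 5′ to 3′ on the gene's strand, from RefSeq on GRCm38.p6, for Cdk1 at chr10:69352913-69353162 (minus strand) and for Ccnb2 at chr9:70421555-70421804 (minus strand). Capitals mark every match, on either strand, to TTTNNCGC (an E2F-type sequence), TTTGAA or CCAAT.
Cdk1: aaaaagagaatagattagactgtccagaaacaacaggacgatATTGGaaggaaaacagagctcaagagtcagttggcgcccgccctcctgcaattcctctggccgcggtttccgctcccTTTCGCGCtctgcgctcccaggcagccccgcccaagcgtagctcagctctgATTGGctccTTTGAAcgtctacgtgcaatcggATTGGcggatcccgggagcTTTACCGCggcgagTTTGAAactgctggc
Ccnb2: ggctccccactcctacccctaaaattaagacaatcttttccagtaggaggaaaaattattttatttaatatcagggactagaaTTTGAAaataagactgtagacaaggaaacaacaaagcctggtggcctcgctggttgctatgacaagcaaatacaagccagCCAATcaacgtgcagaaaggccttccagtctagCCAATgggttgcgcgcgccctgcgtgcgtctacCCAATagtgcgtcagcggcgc
The Cdk1 window holds 2 matches to TTTNNCGC, 2 to TTTGAA and 3 to CCAAT, the last of these on the opposite strand. The Ccnb2 window holds 1 match to TTTGAA and 3 to CCAAT, and none to TTTNNCGC. Its TTTGAA match lies 167 to 162 bases before the start, apart from the CCAAT matches, which lie within the last 87 bases. Whether that match is a site of the DREAM complex was not tested. Promoters of 38 of the 51 genes were matched by symbol. TTTNNCGC was found in 8 of these 38 (21.1%) and in 4.94% of all 27025 genes with a promoter, TTTGAA in 8 (21.1%) against 18.3%, and CCAAT in 18 (47.4%) against 37.5%. Of the matched genes, 22 were above the background limit, and TTTNNCGC was in 4 of these 22 and in 4 of the 16 that were not.

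Among the other kinases of the cycle, Cdk4 was above the limit by 3 of 3 probe sets. It read 3907, 4230.5 and 4273 by 1422439_a_at and 4257, 4262 and 4102 by 1422441_x_at, with the arrays of each close together. Its probe set with neither suffix, 1422440_at, read 1489, 1222 and 1498 (0.79 ± 0.12 log2 over the limit; limma, adjusted p = 0.000687). Cdk6, the other partner of the D-type cyclins, read 8056, 5074 and 6762 on MOE430B by 1455287_at, above the limit (1.17 ± 0.18 log2; limma, adjusted p = 0.000188). A further MOE430B probe set gave 5531, 2798 and 3404, with replicate 2 just under the limit, and the one on MOE430A gave 138 ± 38.4, far under it. Cdk2, the partner of cyclins E and A, read 1325, 619 and 924 on MOE430A. Replicate 2 was under the limit and the others over it, so Cdk2 was not called (0.17 ± 0.22 log2; limma, adjusted p = 0.599). Without replicate 2 Cdk2 would have been called, but omitting an array can only keep or add calls. The Cdk2 probe set on MOE430B gave 102, 40.2 and 41.6, far under the limit. Cdk3, not listed as protein-coding in the RefSeq annotation used, read 389, 615 and 358 on MOE430B, under the limit on each array.

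The CIP/KIP inhibitors were above the limit for 2 of 3 genes. Cdkn1a (p21), which p53 and growth factor signals can both induce, read 9446, 8993 and 7555 by 1424638_at, between 9.19 and 11.5 times the limit (3.42 ± 0.10 log2; limma, adjusted p = 4.28e-08). Its second probe set gave 2076, 2669.7 and 2067, also above it, and in neither probe set did an array approach the limit. Cdkn1b (p27), typical of resting cells, was above it by 1 of 2 probe sets, at 1223, 830.1 and 1568, and the other gave 307 ± 94.1. Replicate 2 was the low array at 1.06 times the limit, and the distance of 0.53 ± 0.18 log2 passed narrowly (limma, adjusted p = 0.0352). With the limit at the 99th percentile Cdkn1b was not called. Cdkn1c (p57) read 465, 115 and 442, under the limit on each array.

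The INK4 inhibitors divided into 2 genes above and 2 under the limit, each read by 1 probe set on MOE430A. Cdkn2b (p15), a known target of TGF-beta, read 4605, 4652 and 3015, with replicate 3 the low array (2.31 ± 0.15 log2 over the limit; limma, adjusted p = 2.51e-06). Cdkn2c (p18) read 3003, 2844 and 3125, nearly the same on each array (1.89 ± 0.093 log2; limma, adjusted p = 5.64e-07). Cdkn2a, whose locus encodes both p16 and the p53 activator Arf, read 309, 104 and 245, under the limit throughout. Cdkn2d (p19) read 422, 426 and 553, between 0.515 and 0.673 times the limit. The adjacent genes Cdkn2a and Cdkn2b were thus on opposite sides of the limit on all 3 arrays. Of the 7 inhibitors 4 were above it.

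**Figure D3:**
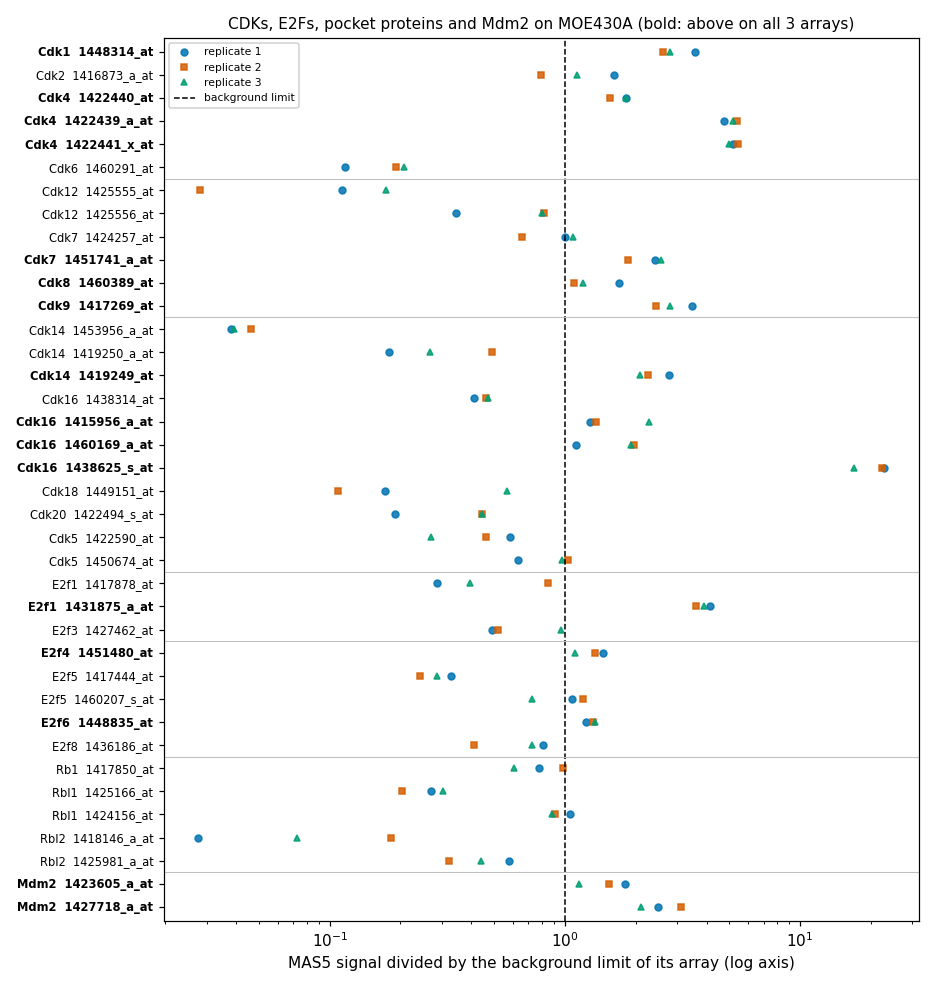
Signal divided by the background limit of its array (log axis) for the CDK, E2F, pocket protein and Mdm2 probe sets of MOE430A, 1 marker per replicate, with the limit as a dashed line. Bold names mark probe sets above the limit on all 3 arrays, and none of the rows of Rb1, Rbl1 and Rbl2 is bold.

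The E2F activators were above the limit for 2 of 3 genes. E2f1 read 3405, 2823 and 3212 by 1431875_a_at (1.96 ± 0.096 log2 over the limit; limma, adjusted p = 5.78e-07). Its other probe sets were under the limit on every array, at 235, 662 and 326 on MOE430A and 759, 427 and 1367 on MOE430B, so the call rests on an _a_at set, whose probes match several transcripts of the gene. E2f3 read 8451, 5922 and 7194 on MOE430B (1.30 ± 0.17 log2; limma, adjusted p = 3.57e-05) and 400.3, 406 and 788 on MOE430A, where it was under the limit. E2f2 read 1256, 1551 and 2731 by the nearer of its MOE430B probe sets, with replicate 3 alone over the limit.

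The E2F repressors were above the limit for 3 of 5 genes. E2f4, the factor that sits with p130 in resting cells, read 1192, 1053 and 906 and E2f6, a repressor free of pocket proteins, read 1005, 1037 and 1104. Both lay near the limit, at 0.37 ± 0.15 and 0.37 ± 0.14 on the log2 scale (limma, adjusted p = 0.0657 and 0.0458), and neither was called with the limit at the 99th percentile. E2f5 read 14689, 16057 and 15944 on MOE430B, far over the limit (2.43 ± 0.14 log2; limma, adjusted p = 3.97e-09), whereas its MOE430A probe sets gave 877, 937 and 594 and 268, 191 and 234. The first of these was under the limit in replicate 3 only. The atypical factors E2f7 and E2f8, which are switched on in S phase and repress E2F targets, were not called. E2f7 read 4442, 2723 and 1941 on MOE430B, over the limit in replicate 1 alone, and E2f8 read 663, 322 and 593 on MOE430A, under it throughout.

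The pocket proteins, which hold E2F in check, were above the limit for 0 of 3 genes by 8 probe sets. Rb1 read 637, 772 and 499 on MOE430A, 0.607 to 0.983 times the limit. Rbl1 (p107) read 861, 712 and 727, at the limit, with replicate 1 over it and the others under it. The log2 distances were -0.37 (95% interval -0.88 to 0.14) for Rb1 and -0.082 (-0.48 to 0.32) for Rbl1, so a level at the limit lies within both intervals. Rbl2 (p130) read 474, 252 and 363, under it on every array. Values under the limit do not show that a transcript was missing from the cells. The Rbl1 promoter is shown because this gene is a known E2F target and its window carries the site beside the start. The 250 bases before the start are those of chr2:157204535-157204784 (minus strand, GRCm38.p6, RefSeq), 5′ to 3′ on the gene's strand, with matches to the same motifs in capitals.
Rbl1: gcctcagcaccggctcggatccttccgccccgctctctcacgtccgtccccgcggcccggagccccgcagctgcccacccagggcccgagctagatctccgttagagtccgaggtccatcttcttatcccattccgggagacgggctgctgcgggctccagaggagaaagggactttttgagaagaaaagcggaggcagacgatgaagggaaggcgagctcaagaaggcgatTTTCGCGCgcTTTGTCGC
Both matches to TTTNNCGC lie within the last 18 bases before the start, and the window holds no match to TTTGAA or CCAAT.

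Mdm2, the ubiquitin ligase that degrades p53 and is itself a p53 target, was above the limit by both MOE430A probe sets, at 2044, 2445 and 1729 and 1477, 1206 and 947. The distances were 1.34 ± 0.13 and 0.56 ± 0.16 on the log2 scale (limma, adjusted p = 4.23e-05 and 0.0168). No array of either probe set was under the limit, while the MOE430B probe set gave 1127 ± 297, under it. Both MOE430A sets carry the suffix _a_at, and without sets of that kind Mdm2 was not called. Ccng1, a cyclin with no firmly known CDK partner and a p53 target, read 6773, 12438 and 7327 by 1420827_a_at. Replicate 2 was the high array and the lowest was 8.26 times the limit. A second Ccng1 probe set, 1450016_at, gave 2763, 3279 and 2854 with less spread (1.87 ± 0.11 log2; limma, adjusted p = 1.29e-06), and the third gave 902, 1218 and 745, under the limit in replicate 3. Ccng2, which is raised in resting cells, read 2442, 2653 and 2233 by 1 probe set (1.59 ± 0.11 log2; limma, adjusted p = 3.99e-06) and 267 ± 104 by the other.

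Among p53 targets outside the members, 9 of 15 were above the limit, against 36.1% of all genes. That share was not matched for the number of probe sets per gene, with which it rises. Of the first genes of that list, Sesn1 read 958, 1045 and 1214 by a probe set of shared sequence, above the limit on each array. Sesn2, like it a stress-induced sestrin, read 1637, 2049 and 1798, also above the limit on each array. All further probe sets of both genes were under the limit on each array, that of Sesn2 at 232, 647 and 382. Gadd45a, which binds Pcna and Cdkn1a, read 633, 665 and 503, under it on each array. The others above it included Plk2 at 4294 ± 264, Ei24 at 5536 ± 47.5 and Phlda3 at 2065 ± 128, named after their values were seen. A further Plk2 probe set, on MOE430B, was under the limit at 2163 ± 296. The death genes Bbc3, Pmaip1 and Fas were not above it, at 511 ± 348, 425 ± 209.6 and 69.5 ± 20.8. Bbc3 was over the limit in replicate 3, at 832. Aen, an apoptosis-enhancing nuclease of the same list, was above it at 4886, 4266 and 2395. The further Aen probe sets were under the limit on each array. These values therefore do not show that death genes as a group were under the limit.

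The CDK-activating and transcriptional kinases were above the limit for 5 of 6 genes, where 36.1% of all genes were. By probe set, 5 of 21 passed. Cdk7, which activates other CDKs together with Ccnh, read 1980.2, 1451 and 2096 by an _a_at set, while its other 4 probe sets did not pass. Ccnh was above the limit by 2 of 3 probe sets, at 2789.8, 3342 and 2836 and 1720.2, 1217 and 1073, while the third gave 28.4, 253 and 264. Cdk9, the kinase of transcript elongation, read 2857, 1920.5 and 2299.6 (1.53 ± 0.13 log2; limma, adjusted p = 1.31e-05). The Mediator kinases lay near the limit. Cdk8 read 1386, 856 and 983 on MOE430A and Cdk19 3509.9, 3736 and 3332 on MOE430B, above it on each array but not by the test (limma, adjusted p = 0.0882 and 0.978). Their partner Ccnc was above the limit by 0 of 5 probe sets, the nearest at 625, 558 and 521. Cdk13, a kinase of RNA polymerase II, read 3673, 4622 and 2911 on MOE430B, likewise without passing (limma, adjusted p = 0.676). Its relative Cdk12, at 4395, 4558 and 2311 by the brightest of 7 probe sets, was under the limit in replicate 3. With the limit at the 99th percentile Cdk8, Cdk13 and Cdk19 were not called.

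Of the remaining kinases, which have roles outside the core cycle, 3 of 7 were above the limit, where 36.1% of all genes were. Cdk14, which acts with the membrane-bound cyclin Y in Wnt signalling, read 2266, 1771 and 1721 by 1 of 3 probe sets (1.24 ± 0.12 log2; limma, adjusted p = 4.04e-05). Its _a_at sets gave 249 ± 121 and 33.2 ± 2.73, far under the limit. Cdk16 read 18673, 17575 and 13919 by 1438625_s_at, 20.7 times the mean limit, and 1045, 1066 and 1869 and 909, 1549 and 1576 by its _a_at sets, which lay near the limit. The suffix _s_at marks probes shared with transcripts of other genes, and the Cdk16 probe set on MOE430A without such a suffix gave 338, 363 and 387, under the limit. Cdk17 read 20103, 17789.8 and 21256 on MOE430B (2.77 ± 0.14 log2; limma, adjusted p = 6.41e-10), with no array near the limit. Cdk5, best known from neurons, read 517, 810.3 and 801, with replicate 2 alone over the limit. Cdk10 read 2227, 3400.4 and 879.8 on MOE430B, again with replicate 2 alone over it. Cdk18 and Cdk20 read 231 ± 206 and 289.8 ± 117 on MOE430A, under the limit, as did Ccnb1ip1 at 236 ± 166.

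**Figure D4:**
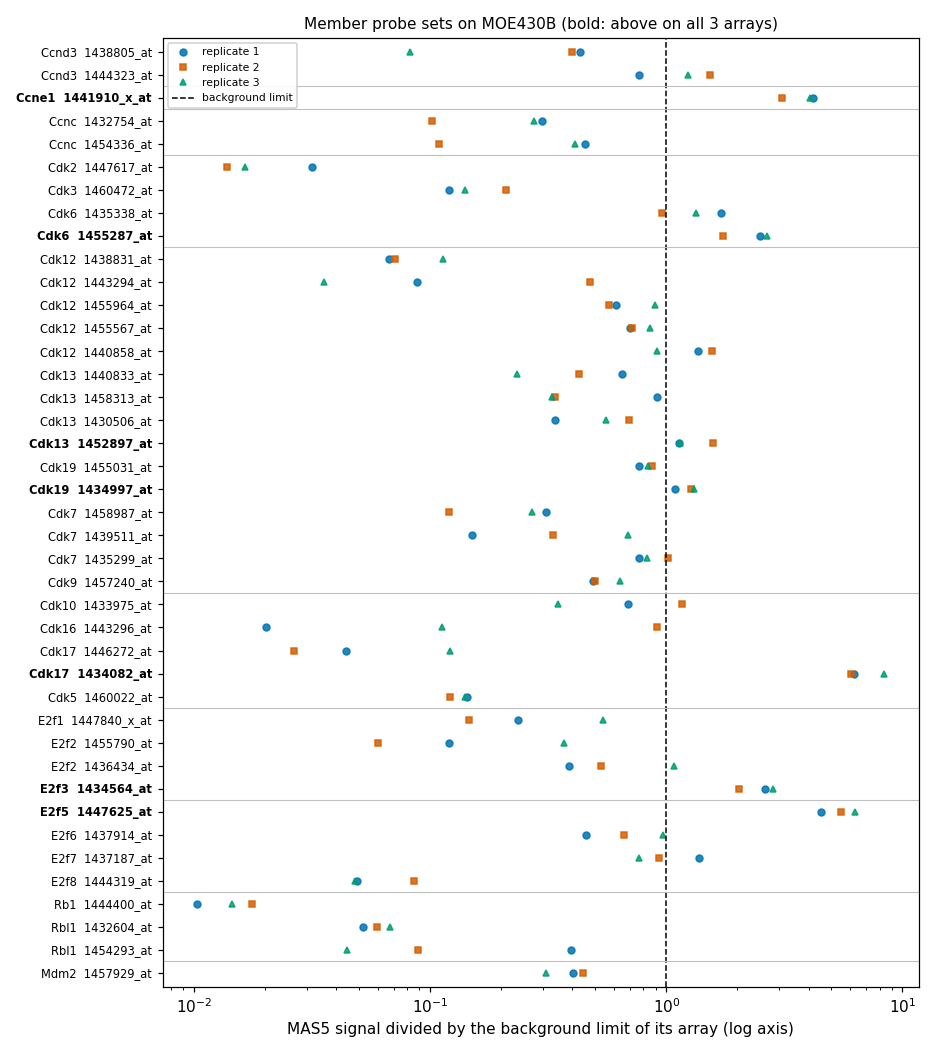
Signal divided by the background limit of its array (log axis) for the 41 member probe sets on MOE430B, 1 marker per replicate, with the limit as a dashed line. The 7 rows in bold, those of Ccne1, Cdk6, Cdk13, Cdk17, Cdk19, E2f3 and E2f5, were above the limit on all 3 arrays.

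MOE430B alone supplied the calls of 7 genes and MOE430A alone those of 23, and 0 genes were called on both chips. Many members, such as Ccnd1 and Cdk13, have probe sets on 1 chip only and could not be called on both. In 20 of the 30 genes called, at least 1 further probe set was not above the limit. These counts were not made over all genes, so they cannot be read as particular to the members. Without probe sets of the suffixes _x_at, _s_at and _a_at, 25 of 48 genes were above it, where 30.5% of all genes were. The genes lost were Ccne1, Cdk7, Cdk16, E2f1 and Mdm2. Those of Cdk7, E2f1 and Mdm2 had been called by _a_at sets, whose probes match several transcripts of the gene. Their loss therefore does not show signal from other genes.

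The other genes of the pathway were read in the same way. The share of all genes beside each list was again not matched for probe sets per gene. For genes above the limit the values given are of a probe set that passed. Further sets of several did not pass, as for Aurkb, Wee1, Skp2, Tfdp2 and Fosl1. Of DNA replication genes 11 of 19 were above the limit, where 36.1% of all genes were. The helicase subunits Mcm2, Mcm4 and Mcm5 read 2198 ± 814, 3012 ± 569 and, on MOE430B, 21151 ± 4008, by probe sets of shared sequence. Mcm4 was also above the limit by a probe set without such a suffix, at 2104, 1567 and 1799, whereas the sets of Mcm2 and Mcm5 without a suffix were under it. Mcm3 gave 1577, 1252 and 758 and was under the limit in replicate 3. Pcna, the sliding clamp of replication, read 8704, 5486 and 7491, and replicate 2 was its low array. Of mitotic genes 15 of 20 (75%) were above the limit, where 36.1% of all genes were. With the limit at the 99th percentile 8 of 20 (40%) were, against 27% of all genes, so the list then lay nearer to the share of all genes. The proliferation marker Mki67 read 1918, 1547 and 1715 and Top2a, the topoisomerase of dividing cells, 1778, 1674 and 1618. Aurka and Aurkb, the Aurora kinases, read 1193 ± 145 and 1035 ± 204, and Bub1, Bub1b, Ccnf, Kif11 and Kif20a were not above it.

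Of CDK activators, inhibitory kinases and degradation factors 8 of 15 were above the limit, where 36.1% of all genes were. The phosphatases that activate CDKs read 1807 ± 211 for Cdc25a and 1353 ± 192 for Cdc25b, while Cdc25c gave 174 ± 165 on MOE430A, under it. Wee1, the kinase that opposes them, read 1330.0 ± 234. Skp2, which targets Cdkn1b for degradation, was above the limit at 1016, 1148 and 1013, and Cks1b, its cofactor in that step, read 20107 ± 1436. Of E2F partners and DREAM components 6 of 11 were above the limit, against the same 36.1%. The E2F partners Tfdp1 and Tfdp2 read 3003 ± 103 and, on MOE430B, 4463 ± 189.9, whereas the MuvB subunits Lin9 and Lin37 read 238 ± 23.1 and 129 ± 45.5 on MOE430A, under it. Lin52, Lin54 and Mybl2 were not above it either.

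Of transcription factors known to induce D-type cyclins 8 of 9 were above the limit, where 36.1% of all genes were. This list, like the others, was chosen with earlier results of these data known. Fos read 13162 ± 2009.7, Jun 4410.1 ± 63.1 and the AP-1 member Fosl1 2367 ± 298. The exception was Myc, at 907, 913 and 751, under the limit in replicate 3. Over the members the median of each gene's best log2 ratio to the limit was 0.37, and over all genes it was -0.42. For the lists this median was 0.89 in DNA replication, 0.50 in mitosis, 0.39 in activators and degradation, 0.63 in E2F partners, 0.93 in p53 targets and 2.45 in the D-type cyclin inducers. A best ratio can only rise with more probe sets, and these medians were not matched for their number.

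Between replicates, the called member probe sets varied with a median coefficient of variation of 14.8% on MOE430A and 17.6% on MOE430B, where all called probe sets had 12.9% and 15.6%. It ranged from 2.17% for Cdk4 (1422441_x_at) to 36.0% for Ccnd1 (1448698_at). Among the 38 called on MOE430A, replicate 1 was the lowest for 11, replicate 2 for 12 and replicate 3 for 15. Among all 7249 single-gene probe sets called there, these numbers were 2109, 2851 and 2289, so replicate 2 was most often the lowest array. Hybridisation controls were brightest in replicate 2 without exception (9 of 9 on MOE430A, with a median ratio to the other replicates of 1.54), and their part in the members' spread was not tested. On MOE430A replicate 2 was the lowest array for Ccna2, Ccnb2, Cdk1 and Cdk2, a group singled out after the values were seen. In the comparison of replicates with limma, in which the chips serve as repeats of each replicate, 7 of 621 genes differed (1.13%). The only member with signal over the mean limit on both chips was Ccnd3. Its log2 difference between replicates 2 and 1 was 0.52 ± 0.29 (SE) and did not pass (limma F-test, adjusted p = 0.746).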

How the data were processed

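The values are MAS5 signal intensity, deposited by the authors on a linear scale; MAS5 is named in the submitters' processing notes, without a version. In the deposited intensity values, the mean after trimming 2% at each end was 1500 on every array, each chip scaled by itself. Detection calls were not used. Probe sets were named through the platform annotation with symbols brought up to date by Entrez number (RefSeq genes, GRCm38.p6; 20364 of 20393 single-gene probe sets on MOE430A matched, 14499 of 14674 on MOE430B). Reference probe sets numbered 150 and 44.

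The limit test used limma 3.58.1 in R 4.3.3 on log2(signal / limit), with an intensity trend, one-sided, Benjamini-Hochberg adjusted at 0.05. It takes the limit as fixed. In simulated data it recovered 55% of probe sets at 1 log2 unit above the limit on MOE430A and 35% on MOE430B, and 88% at 2 units on each. The simulation placed far fewer probe sets above the limit than the 35.5% and 13.6% called in the data. Its adjusted threshold was therefore stricter, and these shares do not give the recovery in the data. With 3 arrays per chip, their number limits the precision. Scan headers put each chip on a day of its own, so chip and day cannot be told apart. The MOE430B array of replicate 1 came from another chip lot than the others. Members and lists were chosen with earlier results of these data known. Every member is accounted for. Values on every array are given for the D-, E-, A- and B-type cyclins, cell cycle CDKs, inhibitors, E2Fs and pocket proteins and for members above the limit, and the first genes of each other list are named. Bax was not analysed here, and Skp1a is an older name of Skp1. Alternatives were another limit, limma calls, quantile normalization, omission of replicates, of shared probe sets and of MOE430B, and 1 probe set per gene. Python 3.11.15, numpy 2.4.6, pandas 2.3.3 and matplotlib 3.10.9 were used.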

Additional observations from a re-analysis of the deposited data

How the results depend on the processing

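The count of member genes above the limit was 30, and it stayed within 23 to 35 under the alternatives run. It was 23 with the 99th percentile, 25 with limma, 35 with the array median as limit and 30 to 31 without 1 replicate. A call needs every array used, so omitting a replicate can only keep or add calls. The counts without 1 replicate therefore do not test how stable the calls are. With the 99th percentile limit the called probe sets went from 45 to 34. Of those lost, 4 kept a mean over the limit (both Cdk16 _a_at sets, 1 of Cdkn1b and 1 of Mdm2) and 7 had a mean under it, with log2 ratios of -0.32 for Ccnb2, -0.066 for Ccnd2 (1430127_a_at), -0.35 for Cdk13, -0.41 for Cdk19, -0.12 for Cdk8, -0.13 for E2f4 and -0.13 for E2f6, and the mitotic list went from 15 genes to 8. Quantile normalization changed no member's call. Without 1 replicate the mean log2 ratio ran from -0.30 to 0.063 for Cdk7 (1424257_at), over the limit without replicate 2, and from -0.18 to 0.18 for E2f5 (1460207_s_at), over it without replicate 3. Between replicates limma called 7 genes, and 0 with quantile normalization (38 at an unadjusted p under 0.05), 0 without a trend (56) and 0 without the filter (92), and 0 to 7 without 1 replicate, 0 being without replicate 2 (39) and 4 without replicate 3. Why these counts moved was not tested. No paired analysis was possible because the chips hold different probe sets of a gene and were not compared as groups, and the replicate number is itself the factor tested. Signal near the limit restricts what can be read for Ccnb2, Cdk2, Cdk8, Cdk12, Cdk13, Cdk19, E2f4, E2f6, E2f7 and Rbl1.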
